A study of Mus musculus with 34 samples.

Results

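The meiosis genes *Stra8*, *Stag3*, *Syce2*, *Dmc1* and *Sycp1* of the mouse were followed across 10 groups of pluripotent, germ and somatic cells. They were taken as the probe sets whose only gene symbol in the probe annotation is one of these names. Each of the 5 genes had exactly 1 probe set, which makes 5 of the 8251 genes with a value and 5 of the 12488 probe sets on the array. The 2 questions were where the genes stood when germ cells of the 2 sexes part ways, and how far their signal lay above that of genes with no known role in these cells.

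Meiosis turns a diploid germ cell into haploid gametes. In the mouse, female germ cells start it in the fetal ovary. Male germ cells of the same age stop dividing (mitotic arrest) and start meiosis only after birth. Retinoic acid from the surrounding tissue and BMP signals switch on STRA8, a protein required for meiotic S phase and prophase. Cohesin with the STAG3 subunit then holds the sister chromatids, SYCP1 and SYCE2 build the central part of the synaptonemal complex between paired homologs, and DMC1 carries out strand exchange between them.

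RNA abundance was measured on Affymetrix arrays of 12488 probe sets, from total RNA amplified by 2 rounds of in vitro transcription. Primordial germ cells, the fetal precursors of eggs and sperm, were sorted as Oct4/GFP-positive cells. The group PGC E11.5 (4 arrays) pools both sexes at that day, while the E13.5 cells were kept apart by sex (PGC E13.5 female, 3 arrays, and PGC E13.5 male, 3 arrays). Their somatic neighbours (SGM, 4 arrays, mixed sex) were the GFP-negative gonad and mesonephros cells of E11.5 embryos. Embryonic germ cells (EGC, 3 arrays, male, passage 19), a line derived from E12.5 germ cells, and embryonic stem cells (ESC, 2 arrays, male, passage 9 to 14) were grown with LIF and serum. The inner cell mass of E3.5 blastocysts (ICM, 3 arrays, mixed sex) was isolated by immunosurgery. The other somatic groups were E13.5 embryonic fibroblasts at passage 2 (MEF, 6 arrays, mixed sex), neurospheres of the subventricular zone of 8-week animals at passage 1 in EGF (NSC, 2 arrays, mixed sex), and haematopoietic stem cells of 8-week male bone marrow (HSC, 2 arrays). The HSC were side population cells positive for Sca-1 and c-Kit and negative for CD34 and lineage markers. All groups were C57Bl/6 except the ICM, whose first replicate came from a cross of C57Bl/6 x C3H F1 with CD1 and whose other replicates came from C57Bl/6 x C3H F1 animals. The Oct4/GFP reporter defined both the germ cells and the SGM, so the purity of each rests on that gate.

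The labels of the groups were checked on the arrays. All 10 measured germ cell markers (of 13 listed) were higher in PGC E11.5 than in SGM, and 11 of 16 gonad soma markers and 17 of 20 mesenchyme, endothelium and blood markers were lower. Over all genes 23.2% were called higher and 26.9% lower. The Y-linked gene *Eif2s3y* read 3.60 to 3.97 in the E13.5 female arrays and 6.08 to 6.68 in the male arrays. Among groups labelled mixed sex it read 7.65 to 7.96 in PGC E11.5, 3.20 to 6.95 in SGM and 4.16 to 4.26 in NSC. The lowest SGM array thus read as low as the female cells. A match of the sexes between PGC E11.5 and SGM was not shown. The deposited values are log2 signals, so a difference of 1 is a doubling. Levels below are group means ± SD over arrays. Differences are given ± SE from 1 limma fit of all 10 groups, and a gene is called at a Benjamini-Hochberg adjusted p under 0.05 over all 8251 genes. The labels call the arrays of a group biological replicates. In the table, the columns ESC replicate 3 and PGC E11.5 replicate 5 are means of the other arrays of their group and were left out. The number of arrays, 2 to 6 a group, limits the precision of each mean.

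The start regions of these genes carry sequence motifs named in the biology of meiosis genes, and 3 windows are shown for *Stra8*, *Stag3* and *Syce2*, on which the results turn. RefSeq gave 6 promoter windows for the 5 genes in build GRCm38.p6, 2 of them for *Syce2*, each from 250 bases before to 50 after a start. Capitals mark exact matches on either strand to 4 motifs: TCCCGC (bound by E2F6), CACGTG (the E-box bound by MAX with its partners), AGGTCA (the hexamer read by nuclear receptors, which include the retinoic acid receptors) and CNCCTCAG (bound by STRA8). The windows are written 5′ to 3′ on the strand of the gene. The first lies at chr6:34920698-34920997, the second at chr5:138280259-138280558 and the third, the second of the *Syce2* windows, at chr8:84872008-84872307, all on the plus strand.
Stra8: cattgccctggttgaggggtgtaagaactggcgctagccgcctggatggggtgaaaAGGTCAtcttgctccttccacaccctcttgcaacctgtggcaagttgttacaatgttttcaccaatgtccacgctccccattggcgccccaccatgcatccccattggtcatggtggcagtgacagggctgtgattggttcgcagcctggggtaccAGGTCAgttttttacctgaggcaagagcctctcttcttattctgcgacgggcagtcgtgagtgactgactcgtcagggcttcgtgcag
Stag3: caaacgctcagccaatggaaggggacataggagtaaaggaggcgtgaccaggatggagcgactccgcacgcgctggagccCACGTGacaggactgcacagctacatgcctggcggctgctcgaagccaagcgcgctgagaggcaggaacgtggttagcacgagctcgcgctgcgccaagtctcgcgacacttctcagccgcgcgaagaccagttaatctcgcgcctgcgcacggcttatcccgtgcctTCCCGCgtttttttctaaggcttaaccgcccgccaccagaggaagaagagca
Syce2: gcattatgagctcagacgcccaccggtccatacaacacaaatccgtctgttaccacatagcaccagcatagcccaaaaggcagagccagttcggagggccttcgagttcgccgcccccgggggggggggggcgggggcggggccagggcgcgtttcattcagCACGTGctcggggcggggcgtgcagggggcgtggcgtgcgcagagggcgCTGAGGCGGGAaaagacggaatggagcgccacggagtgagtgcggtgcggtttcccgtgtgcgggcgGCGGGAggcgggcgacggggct
The *Stra8* window held AGGTCA at positions -194 and -38 from the start and no match to the other 3 motifs. The *Stag3* window held CACGTG at -170 and TCCCGC at -2. The *Syce2* window held CACGTG at -88, TCCCGC on the other strand at -34 and 29, and a CNCCTCAG match on the other strand at -39 that overlaps the match at -34. Its other window, at chr8:84871861-84872160 and overlapping the one shown, held TCCCGC at -115. On the minus strand, the *Dmc1* window (chr15:79605060-79605359) held TCCCGC at -240 and -13. The *Sycp1* window (chr3:102936051-102936350) held CACGTG at -94, TCCCGC at 3 and a CNCCTCAG match at 33. A match to TCCCGC occurred in 19.98% of all 32851 promoter windows of the table, CACGTG in 7.15%, AGGTCA in 16.3% and CNCCTCAG in 7.94%. The windows held 10 to 33 CG dinucleotides against a median of 7 over all windows. The start used for the *Stra8* window lies 785 bases inside the outermost annotated start of its gene and that of the *Stag3* window 7995 bases inside, so other start regions of these genes are not shown. A match is a match of letters, and binding was not measured here.

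Female germ cells at E13.5 differed from male cells in *Stra8* above all, with smaller differences in *Stag3*, *Syce2* and *Dmc1*, while the *Sycp1* arrays overlapped. *Stra8*, *Stag3*, *Syce2* and *Dmc1* were called higher in female than in male cells, 4 of 5 genes with a median difference of 0.71, and none was lower. The *Dmc1* call was lost in 3 of 6 fits that left out 1 array. Over all genes 6.29% were called higher and 2.33% lower, with a median difference of -0.05. Against PGC E11.5, all 5 genes were called higher in female cells (median 1.24), beside 16.3% of all genes higher and 15.2% lower (median 0.09). That count was 3 without female replicate 3 and 3 with only the groups compared in the fit, in both cases without *Dmc1* and *Sycp1*. In male cells 2 of 5, *Stag3* and *Stra8*, were called higher than in PGC E11.5 (median 0.32). There the background was 31.7% of all genes higher and 20.7% lower (median 0.15), so a count of 2 in 5 is near it. The comparisons with PGC E11.5 share those 4 arrays, and female over male shares the E13.5 arrays with both. In such samples fewer cells with a transcript and less of it per cell cannot be told apart.

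**Figure D1:**
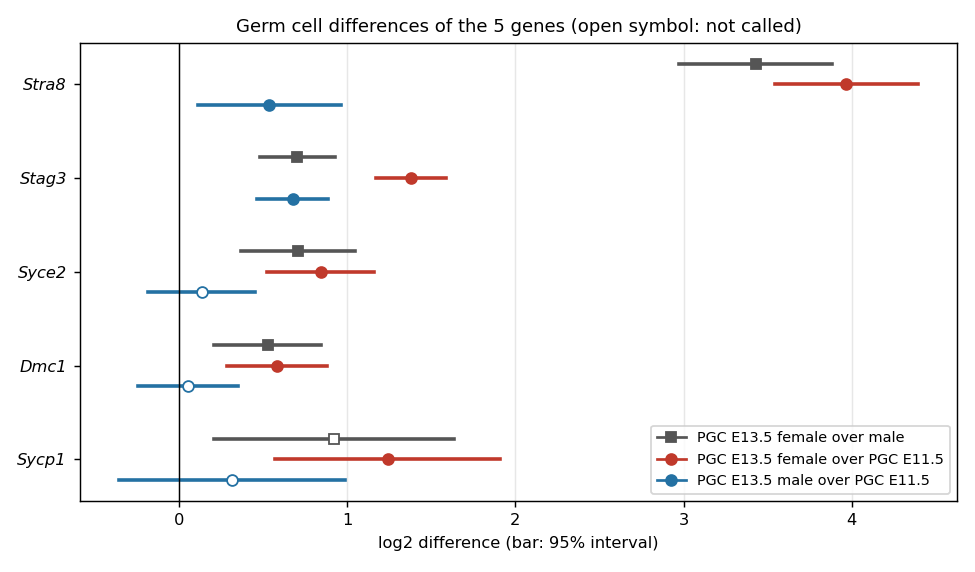
Log2 differences of the 5 genes (rows) for PGC E13.5 female over male (grey squares), female over PGC E11.5 (red circles) and male over PGC E11.5 (blue circles), with 95% intervals. Open symbols are genes that were not called; Stra8 lies at 3.43 and 3.97 in the female comparisons and at 0.54 in the male one.

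*Stra8* (probe set 101194_at; chr6:34920163-34939344, GRCm38.p6), the switch into meiosis, was bright only on the arrays of the female E13.5 germ cells. Those 3 arrays read 8.41, 7.80 and 9.40. The male E13.5 arrays read 5.24, 4.94 and 5.14, and the PGC E11.5 arrays read 4.70, 4.58, 4.67 and 4.33. Every female array stood above each of the other 29 arrays of the series, which spanned 4.33 to 5.58 with a median of 4.74. Female over male the difference was 3.43 ± 0.22 (10.8-fold; limma adjusted p = 1.71e-11), the 2nd highest of 8251 genes. Female over PGC E11.5 it was 3.97 ± 0.21 (15.6-fold; adjusted p = 3.02e-13), the highest of all genes. Those SEs pool the spread of all 10 groups, while the female arrays alone had an SD of 0.81. Among the alternatives that were run, the limma adjusted p reached 0.00414 female over male and 6.30e-04 female over PGC E11.5, both still called. Male over PGC E11.5 the difference was 0.54 ± 0.21 (1.45-fold; adjusted p = 0.0319), with no overlap between the arrays. That call was lost when arrays were centred on their medians (0.48, adjusted p = 0.0609) and without any of 4 single arrays: PGC E11.5 replicate 2 or 4, or male replicate 1 or 3 (0.46 to 0.54, adjusted p = 0.0557 to 0.108). Male E13.5 cells, at 5.11 ± 0.15, lay among the somatic and stem cell groups, whose means ran from 4.62 (EGC) to 5.43 (HSC).

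*Stag3* (160943_at; chr5:138272514-138312397), the meiosis-specific STAG subunit of cohesin, separated the 3 germ cell groups from all other cells measured. The PGC E11.5 arrays read 8.02, 7.70, 8.10 and 8.26, the male E13.5 arrays 8.90, 8.63 and 8.56, and the female E13.5 arrays 9.50, 9.26 and 9.44. The 22 arrays of the other groups lay between 5.57 and 6.71, below the lowest germ cell array. The 3 germ cell groups did not overlap with each other either, in the order PGC E11.5 (8.02 ± 0.23), male (8.70 ± 0.18) and female (9.40 ± 0.12). PGC E11.5 stood 1.87 ± 0.09 above SGM (3.65-fold). From there *Stag3* rose in male cells by 0.68 ± 0.10 (1.60-fold; limma adjusted p = 9.49e-06) and in female cells by 1.38 ± 0.10 (2.60-fold; adjusted p = 1.96e-10). The female cells were 0.70 ± 0.11 above the male cells (1.63-fold; adjusted p = 7.48e-05). Of the 5 genes, *Stag3* was the one called higher in both sexes at E13.5 under every alternative that was run.

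*Syce2* (95561_at; chr8:84872111-84887446), a central element protein of the synaptonemal complex, was already high before meiosis and also outside the germ line. The PGC E11.5 arrays read 8.30, 8.76, 8.71 and 8.78, the male E13.5 arrays 8.97, 8.72 and 8.64, and the female E13.5 arrays 9.48, 9.60 and 9.37. Female cells stood above both other germ cell groups, which overlapped. The difference was 0.71 ± 0.17 from male cells (1.63-fold; limma adjusted p = 0.00616) and 0.84 ± 0.16 from PGC E11.5 (1.80-fold; adjusted p = 1.39e-04). Male over PGC E11.5 it was 0.14 (95% interval -0.18 to 0.45; adjusted p = 0.467). The cultured lines came next, with ESC arrays at 8.01 and 8.25 and EGC arrays at 8.36, 7.85 and 8.49. The ICM arrays read 6.72, 6.80 and 6.19, overlapping SGM (6.10 to 6.59) and HSC (6.39 and 6.72) and just above NSC (5.91 and 6.14). The 6 MEF arrays were lowest, from 4.12 to 4.42 with a median of 4.30. Between the highest and the lowest group mean lay 5.19.

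*Sycp1* (92692_at; chr3:102818499-102936100), the transverse filament of the synaptonemal complex, gave scattered values in the germ cells. The female arrays read 3.91, 3.34 and 5.59, the male arrays 3.91, 3.22 and 2.94, and the PGC E11.5 arrays 3.56, 3.01, 3.36 and 2.23. Only female replicate 3 stood apart, and the other female arrays lay within or next to the range of the male arrays. Female over PGC E11.5 the difference was 1.24 ± 0.33 (adjusted p = 0.00438, limma), with overlapping arrays. Without female replicate 3 it was 0.59 and not called (adjusted p = 0.0858). Female over male it was 0.92 (95% interval 0.21 to 1.64; adjusted p = 0.105), and 1.39 with a call when female replicate 2 was left out (adjusted p = 0.00961). HSC (3.79 and 4.27), ESC (3.68 and 3.82) and NSC (3.38 and 3.74) reached values like those of the germ cells, and EGC was lowest (2.43 to 2.54).

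*Dmc1* (96498_at; chr15:79561497-79605159), the recombinase of meiotic strand exchange, moved little. The female arrays read 6.37, 6.29 and 7.11, the male arrays 6.04, 6.15 and 5.99, and the PGC E11.5 arrays 5.98, 6.13, 6.22 and 5.70. The female arrays lay above both other groups, by a wide gap only in replicate 3. Female over male the difference was 0.53 ± 0.16 (1.44-fold; limma adjusted p = 0.0304), and female over PGC E11.5 it was 0.58 ± 0.15 (1.499-fold; adjusted p = 0.00276). Without female replicate 3 these fell to 0.27 (adjusted p = 0.361) and 0.32 (adjusted p = 0.0542). The female over male call was also lost without male replicate 1 (0.52, adjusted p = 0.0775) or male replicate 3 (0.49, adjusted p = 0.123). The ESC arrays, at 6.25 and 6.42, overlapped the female range, and the whole series outside the female cells lay between 5.50 and 6.42.

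**Figure D2:**
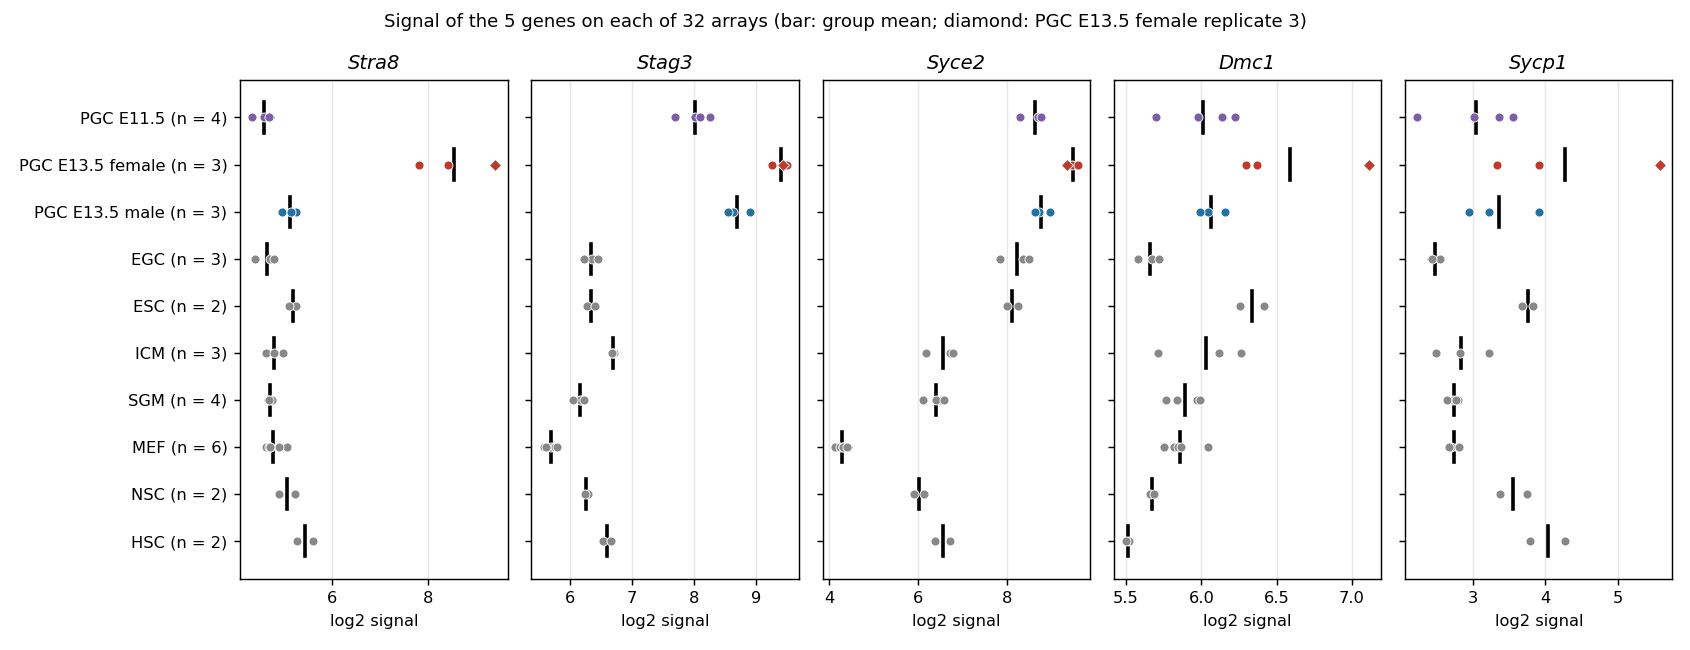
Log2 signal (x axis) of the 5 genes on each of the 32 arrays, by group (y axis), with points for arrays, bars for group means and a diamond for PGC E13.5 female replicate 3. The female arrays of Stra8 lie between 7.80 and 9.40 with all other arrays at or below 5.58, while Stag3 is at 7.70 or more in every germ cell array and at or below 6.71 elsewhere.

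Female replicate 3 was the highest female array of *Stra8*, *Dmc1* and *Sycp1*. *Stra8* was high on all 3 female arrays, and leaving out any 1 array left its female over male difference at 2.99 or more, with the call kept. Set against the mean of female replicates 1 and 2, it was 1.97 higher for *Sycp1*, the largest such difference of 8251 genes, 1.30 higher for *Stra8* (12th) and 0.78 higher for *Dmc1* (198th). It was not higher for *Syce2* (-0.17), and *Stag3* differed by 0.06. Over all genes the median difference was -0.03 with an SD of 0.30. On this array the 10 germ cell markers had a mean of 8.86, against 8.70 and 8.55 on the other 2. The gonad soma markers had a mean of 6.86 against 6.96 and 7.01. The part of stage, cell makeup or array in its values was not tested.

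As a yardstick for background, 100 genes of adult organs such as pancreas, liver and muscle were listed, of which 79 were measured. Their 90th percentile lay between 8.03 and 8.67 on the 32 arrays and their median between 6.33 and 6.91. Probe sets differ in their own background, so a value under this yardstick does not show that a transcript was absent. *Syce2* exceeded the 90th percentile on 11 arrays, *Stag3* on 5 and *Stra8* on 1. *Dmc1* and *Sycp1* exceeded neither it nor the 75th percentile (7.36 to 7.94) on any of the 32 arrays, including those of the female germ cells. At the 75th percentile the counts were 14 arrays for *Syce2*, 10 for *Stag3* (all the germ cell arrays) and 3 for *Stra8* (the female arrays). *Sycp1* lay below the reference median on each of the 32 arrays, and *Dmc1* on each but female replicate 3. Also below it lay *Syce2* and *Stag3* on all 4 SGM arrays and on all MEF and NSC arrays. The same held for *Stag3* on all EGC and ESC arrays, and for *Stra8* on each array outside the female cells. Folds of these genes over such groups are therefore rough measures.

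Before sexual differentiation, *Syce2* and *Stag3* marked germ cells against their somatic neighbours. In PGC E11.5 over SGM these 2 of 5 genes were called higher, beside 23.2% of all genes higher and 26.9% lower. *Syce2* differed by 2.24 ± 0.14 (4.71-fold) and *Stag3* by 1.87 ± 0.09, in each case with no overlap between 4 and 4 arrays. *Stra8* differed by -0.13 (95% interval -0.52 to 0.26), *Dmc1* by 0.12 (-0.16 to 0.39) and *Sycp1* by 0.31 (-0.31 to 0.93), none of them called. PGC E11.5 gave the lowest group mean of *Stra8* in the series, 4.57 ± 0.17.

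Across the 6 pluripotent and germ cell groups against the 4 somatic groups, 4 of 5 genes were called higher, beside 29.1% of all genes higher and 34.9% lower. *Syce2* differed by 2.48 (5.60-fold) and *Stag3* by 1.40 (2.65-fold). *Stra8* differed by 0.48 and *Dmc1* by 0.38, and *Sycp1* by 0.02 (95% interval -0.31 to 0.36) with no call. Without the group PGC E13.5 female, an alternative added after seeing the data, *Stra8* was at -0.14 and not called (adjusted p = 0.0728, limma), and 3 of 5 genes were called higher, *Syce2* (2.25), *Stag3* (1.04) and *Dmc1* (0.29). The *Stag3* values of EGC, ESC and ICM (6.22 to 6.71) lay close to the 14 somatic arrays (5.57 to 6.66), whereas *Syce2* was high in both cultured lines and low in the ICM. *Stra8* was as low in EGC, ESC and ICM (4.39 to 5.24) as in the somatic arrays (4.60 to 5.58).

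The 2 further comparisons were chosen after these levels were seen. In ESC over ICM, 1 of 5 genes was called higher and 1 lower, beside 15.3% and 12.6% of all genes. *Syce2* was 1.56 ± 0.19 higher in ESC (2.95-fold), with no overlap. *Stag3* was lower by -0.35 (adjusted p = 0.0328, limma), a call that was lost whenever any single array of the 2 groups was left out. In EGC over PGC E11.5 no gene was called higher and 2 of 5 lower, beside 19.3% and 18.2% of all genes. *Stag3* was 3.20-fold lower in EGC (-1.68 ± 0.10), with arrays at 6.35, 6.45 and 6.22 and no overlap. *Syce2* was lower by -0.40 ± 0.16 (adjusted p = 0.0423, limma), with overlapping arrays, and lost its call without EGC replicate 2 (-0.21, adjusted p = 0.352) or any of PGC E11.5 replicates 2, 3 and 4. *Dmc1* differed by -0.35 (adjusted p = 0.0594), *Sycp1* by -0.57 and *Stra8* by 0.05, none of them called. The EGC line is 1 derivation from E12.5 cells, so age, culture and sex differ together from the E11.5 cells and cannot be told apart. ESC and ICM differ together in culture, sex and strain, which cannot be told apart either.

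The order of the groups differed from gene to gene, and many neighbours in it overlapped. For *Stra8* the first gap, from female E13.5 cells to HSC, was 3.11, and the arrays of every pair of neighbours below ESC overlapped. For *Stag3* the first 3 places, female, male and E11.5 germ cells, were each separated from the next by more than the sum of the 2 SDs. So were HSC from EGC (0.25) and SGM from MEF (0.45). *Syce2* fell into 4 levels: female germ cells, then the other germ cells with EGC and ESC, then ICM, HSC, SGM and NSC, with MEF 1.73 below the next group. For *Dmc1* the female cells overlapped ESC. For *Sycp1* each neighbouring pair from female E13.5 cells down to SGM overlapped.

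The other proteins of the chromosome axis and synaptonemal complex were thinly covered, with 2 of 12 listed genes on the array. *Sycp3*, the lateral element protein, had group means between 3.09 and 3.55 in all 10 groups and was called in none of the germ cell comparisons. The lowest of the 79 adult-organ genes read 3.24 to 3.64 over the arrays. With *Sycp3* at that floor, the lack of a call does not show that its RNA was unchanged. *Trip13*, an ATPase that remodels HORMA domain proteins in meiosis and in the mitotic checkpoint, was 1.02 ± 0.15 higher in PGC E11.5 than in SGM. It fell from E11.5 in female cells (-0.78 ± 0.16) and in male cells (-0.96 ± 0.16).

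Of 27 other recombination genes, 7 were measured, and none was called between the sexes (median 0.05), beside 8.62% of all genes called. From E11.5 to female E13.5 cells 1 of 7 rose and 3 fell (median -0.38), beside 16.3% and 15.2% of all genes. *Brca2*, which loads the recombinases, rose by 0.49 ± 0.14. *Brca1*, a repair gene of dividing and meiotic cells, changed by -1.20 ± 0.20, the exonuclease *Exo1* by -0.61 ± 0.15 and the damage kinase *Atm* by -0.50 ± 0.11. In male cells 1 rose and 3 fell as well (median -0.38), beside 31.7% and 20.7% of all genes: *Brca1* changed by -1.82 ± 0.20, *Atm* by -0.81 ± 0.11 and *Exo1* by -0.58 ± 0.15. The one that rose in male cells was *Msh5*, a MutS homolog of meiotic crossovers, at 0.27 ± 0.09, a call that was lost with arrays centred. In PGC E11.5 over SGM 5 of the 7 were higher and none lower, beside 23.2% of all genes higher, led by *Brca1* (2.45 ± 0.19) and *Exo1* (2.02 ± 0.14).

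Of 10 listed cohesin and loading genes of dividing cells, 6 were measured. From E11.5 to E13.5, 4 of the 6 fell in female cells (median -0.94), beside 15.2% of all genes, and 5 of the 6 in male cells (median -1.22), beside 20.7%, with none higher. *Smc3*, a core subunit of mitotic and meiotic cohesin, changed by -1.58 ± 0.29 in female and -2.46 ± 0.29 in male cells. *Rad21*, the mitotic kleisin, changed by -1.19 ± 0.27 and -1.70 ± 0.27. *Stag1*, the paralog of *Stag3* in somatic cohesin, changed by -0.94 ± 0.18 and -1.56 ± 0.18. The *Stag1* arrays read 6.56 to 7.54 at E11.5, 6.07 to 6.57 in female and 5.48 to 5.89 in male cells, so that the first 2 groups met and the male arrays lay below both. Between the sexes *Stag1* was 0.62 ± 0.19 higher in female cells, the only call of the list, beside 6.29% of all genes higher. That call was lost with arrays centred or without female replicate 3. In PGC E11.5 over SGM 5 of the 6 were higher and 1 lower, beside 23.2% and 26.9% of all genes.

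Retinoic acid genes were measured for 14 of 21 listed. Female over male, *Crabp2* (1.92 ± 0.22) and *Crabp1* (0.74 ± 0.14), which bind retinoic acid inside cells, were called higher and none lower (median -0.08). Those were 2 of 14, beside 6.29% of all genes higher. From E11.5 the female cells had 5 higher and none lower (median 0.20), among them *Crabp2* (2.12 ± 0.21), *Crabp1* (0.75 ± 0.13), the retinol carrier *Rbp4* (0.75 ± 0.17) and the receptor partner *Rxra* (0.66 ± 0.09). That was 5 of 14 beside 16.3% of all genes. The male cells had 6 of 14 higher and none lower (median 0.25), none by more than 0.60, beside 31.7% of all genes higher. *Crabp2* was brightest in SGM (10.39 ± 0.26) and MEF (9.92 ± 0.16). It read 8.06 ± 0.23 in female, 6.14 ± 0.56 in male and 5.94 ± 0.41 in E11.5 germ cells. Gonad soma of E13.5 was not measured. In PGC E11.5 over SGM none of the 14 was higher and 6 were lower, beside 23.2% and 26.9% of all genes, led by *Crabp2* (-4.45 ± 0.19) and *Crabp1* (-1.90 ± 0.12).

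**Figure D3:**
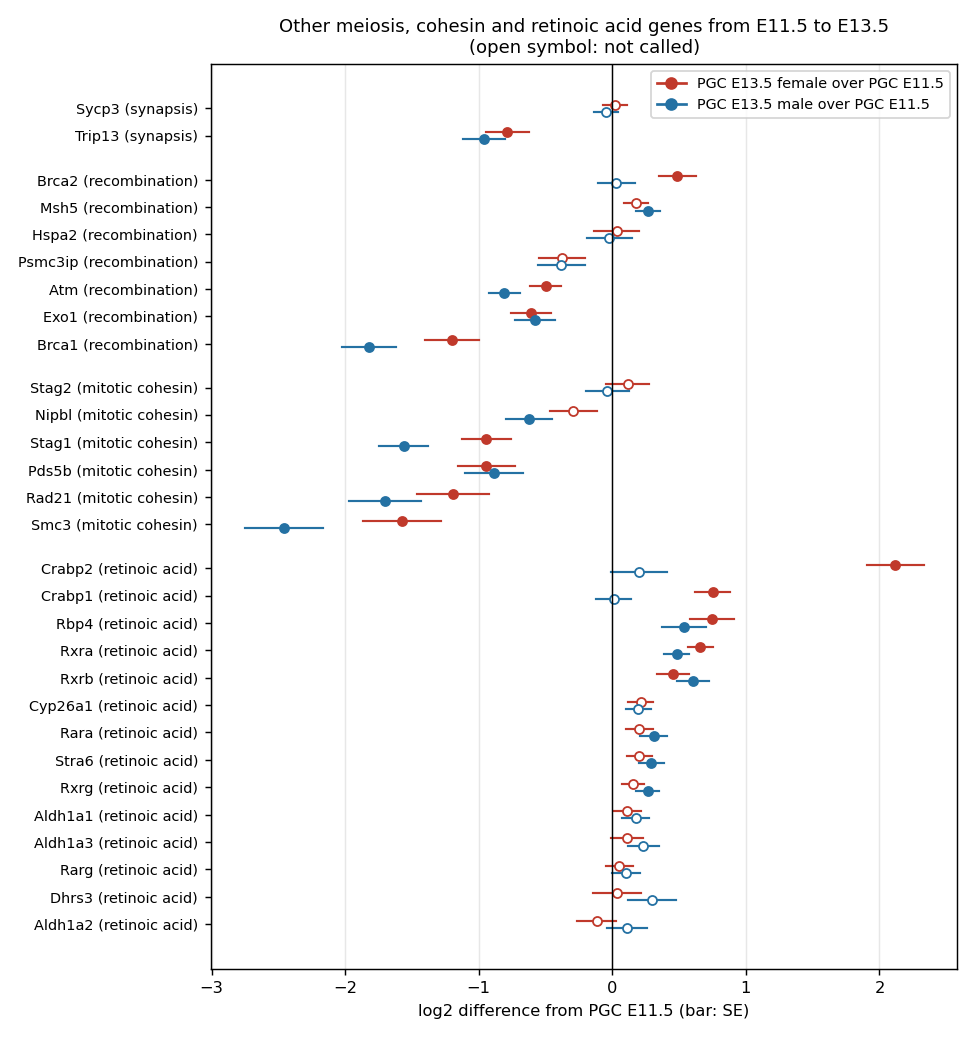
Log2 differences from PGC E11.5 (x axis) of the measured synapsis, recombination, mitotic cohesin and retinoic acid genes in female (red) and male (blue) E13.5 germ cells, with SE bars and open symbols for genes that were not called. Smc3, Rad21 and Stag1 lie to the left of 0 in both sexes, and Crabp2 lies at 2.12 in female cells.

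Genes of meiosis entry and germ cell competence were measured for 5 of 13 listed. Female over male, *Ddx4*, an RNA helicase of germ cells, was 1.03 ± 0.25 higher and the only call (median 0.09), beside 6.29% of all genes higher. That call was lost without female replicate 3. From E11.5, female cells had 3 of 5 higher and none lower (median 0.27), beside 16.3% of all genes higher, led by *Dazl*, an RNA-binding protein required for the response to retinoic acid (0.81 ± 0.16). In male cells 2 were higher and 1 lower (median 0.33), beside 31.7% and 20.7% of all genes, the last being *Ddx4* (-1.45 ± 0.23). *Lhx8* (4.35 ± 0.07) and *Figla* (5.59 ± 0.16), also called higher in female cells, lay below the adult-organ median of those arrays (6.61 to 6.76). Their means in HSC were higher, at 4.80 ± 0.57 and 5.71 ± 0.16. *Ddx4* read 6.33 ± 0.86 in female cells, near ICM (6.60 ± 0.27), ESC (6.41 ± 0.05) and HSC (6.26 ± 0.09). Genes of male germ cell fate, 6 of 15 measured, had none higher and 2 lower in female than in male cells (median -0.14), beside 2.33% of all genes lower. These were the signals *Lefty1* (-1.95 ± 0.14) and *Nodal* (-1.66 ± 0.18). In PGC E11.5 over SGM the entry list had 2 of 5 higher, with *Ddx4* at 2.11 ± 0.21, and the male fate list 3 of 6. There 23.2% of all genes were higher.

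Repressors known to silence meiosis genes in other cells were measured for 13 of 20 listed. From E11.5, 2 were higher and 7 lower in male cells (median -0.50), beside 31.7% and 20.7% of all genes. In female cells 2 were higher and 2 lower (median 0.02), beside 16.3% and 15.2%. In male cells the chromatin remodeller *Hells* changed by -1.93 ± 0.42, the Polycomb ubiquitin ligase *Rnf2* by -1.10 ± 0.28 and *Max*, the partner of MGA in a repressor complex, by -0.93 ± 0.17. In female cells *Hells* changed by -1.14 ± 0.42 and *Max* by -1.04 ± 0.17. Tested directly, female over male, only *Setdb1*, a histone methyltransferase, was called (0.36 ± 0.11), beside 6.29% of all genes higher. That call was lost without female replicate 3. In PGC E11.5 over SGM, 7 were higher and 2 lower, led by *Hells* (2.98 ± 0.39), beside 23.2% and 26.9% of all genes.

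Germ cell and somatic markers were counted in the same comparisons. From E11.5 to male E13.5 cells, 8 of 10 germ cell markers fell (median -1.37), 10 of 16 gonad soma markers rose (median 0.33) and 45 of the 79 adult-organ genes rose (median 0.27). Over all genes 31.7% were called higher and 20.7% lower (median 0.15). To female cells the counts were 7 fallen and 1 risen (median -0.78), 3 risen (median 0.15) and 10 risen (median 0.15). There 16.3% of all genes were higher and 15.2% lower (median 0.09). The gonad soma and adult-organ counts lie near or under that share. Of 20 mesenchyme, endothelium and blood markers, 7 rose to male cells (median 0.31, up to 1.84). To female cells 4 rose (median 0.17, up to 1.30), and none fell in either sex. These counts too lie near the shares of all genes. Female over male, 5 germ cell markers were higher and 1 lower (median 0.58). The gonad soma list had 1 lower (median -0.18), *Dhh*. It read 8.51 ± 0.12 in female, 9.37 ± 0.11 in male, 8.44 ± 0.14 in E11.5 and 8.59 ± 0.05 in SGM cells. The mesenchyme, endothelium and blood list also had 1 lower (median -0.12). Over all genes 6.29% were higher and 2.33% lower. Mean signal of the germ cell list was 9.02 to 9.53 on the E11.5 arrays, 8.55 to 8.86 on the female and 8.22 to 8.35 on the male arrays. That of the gonad soma list was 6.70 to 6.90, 6.86 to 7.01 and 7.10 to 7.18, against 7.81 to 7.95 in SGM. The same list read 7.07 to 7.18 in MEF, 7.10 and 7.11 in NSC, and 6.98 and 7.05 in HSC. Single list genes were high in these cells from outside the gonad, such as *Dhh* in NSC (11.23 ± 0.60) and *Fst* in MEF (10.41 ± 0.26). The list mean is thus no measure of gonad soma content across the groups. The actin 3′ probe set exceeded the 5′ one by 0.21 to 0.51 on the male arrays, below the female (0.67 to 1.25) and E11.5 arrays (0.81 to 1.09). For *Gapdh* the same measure overlapped between the groups, at 3.11 to 3.98 in male, 3.57 to 4.03 in female and 3.21 to 3.67 in E11.5 cells. The part of cell makeup and RNA quality in the differences of the 5 genes was not tested.

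Genes whose group means followed those of a member most closely were taken over the 10 groups, by Pearson correlation among 5008 genes whose group means span at least 1. For *Stra8* they were *Slc22a18* (0.88), *Timm17b* (0.87) and *Sh3bgr* (0.86), and for *Stag3* *Pex7* (0.97), *Tktl1* (0.93) and *Xpo6* (0.92). For *Syce2* they were *Snrpg* (0.97), *Dmrt1* (0.96) and *Nvl* (0.96), of which *Dmrt1* is a transcription factor of the gonad and germ line. For *Dmc1* they were *Ublcp1* (0.88), *Myo9a* (0.83) and *Cyb561* (0.81), and for *Sycp1* *Eml5* (0.86), *Zdhhc5* (0.86) and *Prkdc* (0.84). The 10 points share arrays and scaling, and for *Stra8* 1 group lies far from the rest.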

How the data were processed

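Signals were deposited by the authors on the log2 scale after RMA, which corrects background, normalizes between arrays and sums up the probes of a set, per the submitters' processing notes. No version is given in the sources used here. Values over 16, the log2 limit of a 16-bit scanner, occur in 13 probe sets of the MEF arrays and nowhere else. RMA draws dim values together, so differences between them can be understated.

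Exactly 1 gene symbol was given for 10833 probe sets. Symbols were updated by gene ID (10817 matched) from the GRCm38.p6 gene table, and the brightest probe set stood for its gene, giving 8251 genes. Columns equal to the mean of their group's other arrays within 1e-06 were left out, leaving 32 of 34. Group means were fitted with limma 3.58.1 (lmFit and eBayes) in R 4.3.3, with 22 residual degrees of freedom, two-sided, with Benjamini-Hochberg adjustment over all genes. For pluripotent over somatic, 6 group means were averaged and set against the average of 4. The script was tested on simulated data.

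The members, gene lists and tests were chosen with earlier results of these data known. The genes named are the members, up to 4 called genes of each list and comparison with the largest difference, any measured synapsis, recombination or mitotic cohesin gene, and the genes most like each member. ESC over ICM, EGC over PGC E11.5, pluripotent over somatic without PGC E13.5 female, and the list counts without female replicate 3 or with centred arrays were added after seeing the data. Alternatives were all 34 columns, the mean of a gene's probe sets, each probe set alone, dim genes left out (mean under 7.67, leaving 5546 genes and 3 members), arrays centred on their medians, only the groups compared, the replicate number as a block, no NSC and HSC arrays, and each array left out in turn.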

Additional observations from a re-analysis of the deposited data

Results flagged for a closer look

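In PGC E11.5 the lowest *Syce2* array, at 8.30, lay apart from the other 3 (8.71 to 8.78). The groups of 4 or more arrays, PGC E11.5, SGM and MEF, were examined for each of the 5 genes. Of these 15 sets of arrays it was the only one with such a gap, and chance gives about 1 in 20.

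The change from PGC E11.5 to E13.5 was larger in female than in male germ cells by the limma test of the difference for 4 genes. The difference was 3.43 for *Stra8*, 0.71 for *Syce2*, 0.70 for *Stag3* and 0.53 for *Dmc1*. Since both changes start from the same E11.5 arrays, this equals the female over male comparison and is not a further result.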

How the results depend on the processing

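*Stra8*, *Stag3* and *Syce2* kept their direction and call in both female comparisons under every alternative, at 2.99 to 4.34 for *Stra8*, 0.63 to 1.46 for *Stag3* and 0.64 to 0.90 for *Syce2*. Members called in female over PGC E11.5 numbered 3 with dim genes left out, which removes *Dmc1* and *Sycp1*, and 3 with only the groups compared, where *Dmc1* (adjusted p = 0.0743, limma) and *Sycp1* (0.113) were lost. *Dmc1* was also lost in female over male with only those groups (0.172). In male over PGC E11.5, 1 member was called with arrays centred. With only the groups compared, ESC over ICM had 776 genes called and EGC over PGC E11.5 had 1 member. Leaving out each array in turn gave 389 to 740 genes called in female over male and 1360 to 2359 in ESC over ICM. Members called ranged from 3 to 5 in female over PGC E11.5, 1 to 2 in male over PGC E11.5, 1 in ESC over ICM and 1 to 3 in EGC over PGC E11.5. Where this leaves a lone ESC array, it is assumed to vary like the other groups. Without the NSC and HSC arrays *Sycp1* was called in pluripotent over somatic (0.55).

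Values that changed sign were not called after the change. Without the PGC E13.5 female group, pluripotent over somatic was -0.14 for *Stra8*, which was called at 0.48 with it, and -0.17 for *Sycp1*. In male over PGC E11.5 *Dmc1* was -7.08e-04 with arrays centred and ran from -0.048 to 0.13 with single arrays left out. *Sycp1* in pluripotent over somatic ran from -0.086 to 0.10 with single arrays left out, and *Stra8* in EGC over PGC E11.5 from -0.026 to 0.17.

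Replicate numbers carry no stated meaning across groups, and residuals of like-numbered arrays correlated from -0.49 to 0.52, so they were not taken as pairs. With the replicate number as a block, *Sycp1* in pluripotent over somatic was -0.025 and *Syce2* in EGC over PGC E11.5 was -0.36 (adjusted p = 0.0959). Signal near background limits what the values of *Sycp1*, *Dmc1*, *Sycp3*, *Lhx8* and *Figla*, and of *Stra8* outside the female cells, can show.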
